A study of Mus musculus with 6 samples.

Results

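Skeletal muscle genes were examined in adipose tissue from cavin-3 KO and WT mice. The genes were a fixed list of 44 that encode parts of the sarcomere, proteins of calcium handling and enzymes of muscle energy supply, and all 44 had a probe set with a single gene symbol, out of 19937 genes on the array. Trdn had 19 such probe sets, of which the brightest on average was taken, and each of the other members had 1. RNA was measured with Affymetrix Mouse Gene ST arrays in 3 KO and 3 WT mice, which were littermates 10 weeks old and had fasted for 6 hours. In the KO mice a lacZ/neo fusion cassette replaces the cavin-3 gene in all tissues. Targeted ES cells of C57BL/6N origin gave rise to the line, and per the methods the mice of all experiments except those on embryonic fibroblasts came from 1 ES cell clone. The WT mice carry no cassette. The labels name the tissue as adipose and give neither the depot nor the sex.

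A sarcomere is built from thick filaments of myosin, which pull on thin filaments of actin, and both are anchored, the thin filaments at the Z-disc and the thick ones through titin. Troponin on the thin filament is the calcium switch, and the calcium is released from and pumped back into the sarcoplasmic reticulum. Fast and slow fibres carry different isoforms of most of these proteins, each from its own gene. Adipocytes have no sarcomeres, and in mice skeletal muscle lies directly beside several fat depots.

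The start regions of 5 members are shown because they carry the 2 patterns described below, Myh4 and Ttn for genes highest on the same pair of arrays and Casq1, Ckm and Smpx for genes that were also high on a second pair. Each is the RefSeq window (GRCm38.p6) of 250 bases before to 50 bases after the gene start, and capitals mark matches to an E-box (CANNTG, bound by MyoD and related factors), the MEF2 consensus, the CArG box of SRF, and TATAAA.
Myh4 (chr11:67237562-67237861, plus strand): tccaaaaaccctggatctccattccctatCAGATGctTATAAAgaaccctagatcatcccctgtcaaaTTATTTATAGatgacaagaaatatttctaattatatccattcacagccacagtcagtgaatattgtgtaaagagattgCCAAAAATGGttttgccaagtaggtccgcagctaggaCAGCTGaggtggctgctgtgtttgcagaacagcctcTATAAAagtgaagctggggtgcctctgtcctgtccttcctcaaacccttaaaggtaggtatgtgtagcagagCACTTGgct
Ttn (chr2:76982498-76982797, minus strand): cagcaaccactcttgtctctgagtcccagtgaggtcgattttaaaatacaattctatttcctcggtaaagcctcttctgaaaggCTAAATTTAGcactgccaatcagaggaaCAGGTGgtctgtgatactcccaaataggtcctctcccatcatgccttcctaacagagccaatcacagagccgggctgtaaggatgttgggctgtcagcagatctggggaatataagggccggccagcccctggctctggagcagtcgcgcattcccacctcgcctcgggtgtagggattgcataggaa
Casq1 (chr1:172219846-172220145, minus strand): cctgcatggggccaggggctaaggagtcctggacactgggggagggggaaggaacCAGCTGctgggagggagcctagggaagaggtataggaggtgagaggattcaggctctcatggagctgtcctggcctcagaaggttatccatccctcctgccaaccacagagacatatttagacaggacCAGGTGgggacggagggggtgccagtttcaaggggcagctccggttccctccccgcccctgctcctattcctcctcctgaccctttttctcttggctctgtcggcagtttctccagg
Ckm (chr7:19410844-19411143, plus strand): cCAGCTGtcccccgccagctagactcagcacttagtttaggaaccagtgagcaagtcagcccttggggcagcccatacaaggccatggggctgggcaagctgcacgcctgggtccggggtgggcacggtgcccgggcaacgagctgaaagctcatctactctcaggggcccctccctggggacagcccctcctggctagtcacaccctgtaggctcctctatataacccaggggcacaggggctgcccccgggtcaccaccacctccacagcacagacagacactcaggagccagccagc
Smpx (chrX:157698723-157699022, plus strand): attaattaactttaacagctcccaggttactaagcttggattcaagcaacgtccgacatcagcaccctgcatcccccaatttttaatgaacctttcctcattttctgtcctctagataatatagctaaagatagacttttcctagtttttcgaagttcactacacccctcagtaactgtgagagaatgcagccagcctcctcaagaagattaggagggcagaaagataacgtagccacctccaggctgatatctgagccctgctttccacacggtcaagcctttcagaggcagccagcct

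Myh4 held 3 E-boxes, 1 MEF2 match, which overlapped a TATAAA match on the other strand, and 1 CArG box, while the Smpx window held no match to any of them. RefSeq windows were matched for 31 of the 44 members, in 38 windows. Over both strands, CANNTG was in 81.6% of these windows and in 72.3% of all 32851 windows, and its form CAGCTG in 19 of the 38 and in 16.3% of all. The MEF2 consensus was in 15.8% of the member windows and 3.19% of all, the CArG box in 13.2% and 1.63%, and TATAAA in 18.4% and 13.6%. A match is a run of letters and not a measured binding site.

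The adipose label held for every array. All 13 measured adipocyte markers, such as Adipoq and Plin1, lay above the median signal on all 6 arrays, and their mean log2 signal was 11.98 to 12.08 in KO and 11.88 to 12.06 in WT. Cavin-3 itself (Cavin3, formerly Prkcdbp) had log2 signals of 6.79, 6.78 and 7.12 in KO and 10.05, 10.90 and 10.45 in WT, so the genotype labels held. Xist, the RNA of the inactive X chromosome in females, had 11.34 in KO replicate 3 and 11.14 in WT replicate 2 and at most 6.30 elsewhere, and Uty, on the Y chromosome, had 3.21 and 3.36 on that pair and at least 7.89 elsewhere. The methods of the paper speak of male animals only. Over all probe sets each KO array correlated best with a WT array (across probe sets, Pearson's r = 0.991 for KO replicate 1 with WT replicate 3, 0.990 for KO replicate 2 with WT replicate 1 and 0.989 for KO replicate 3 with WT replicate 2). Values here are log2 of the deposited intensities, and replicates 1, 2 and 3 are given in that order. Levels of different probe sets are not comparable, so differences in level are read for the same gene or list between arrays. Apart from this, signals are only placed above or below the median signal of their array, as a rough mark of bright or dim.

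Skeletal muscle genes differed far more between mice of one genotype than between the genotypes. The mean log2 signal of the 44 genes was 5.54, 5.92 and 7.69 in KO and 6.06, 7.51 and 5.53 in WT. KO replicate 3 and WT replicate 2 stood well above the other 4 arrays, and they are the same pair that had high Xist. On the linear scale the mean of the logs corresponds to 4.44-fold between KO replicates 3 and 1 and to 3.96-fold between WT replicates 2 and 3. For 41 of the 44 genes these were the 2 highest arrays, against 16.6% of all genes. The exceptions were Mybpc1, Smpx and Casq1. The median range of a member over the 6 arrays was 2.17 on the log2 scale, against 0.38 for all genes, and 26 of the 44 had a range above 2, against 2.24% of all genes. In bulk RNA, fewer muscle cells in a sample and less of these RNAs per cell cannot be told apart.

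**Figure D1:**
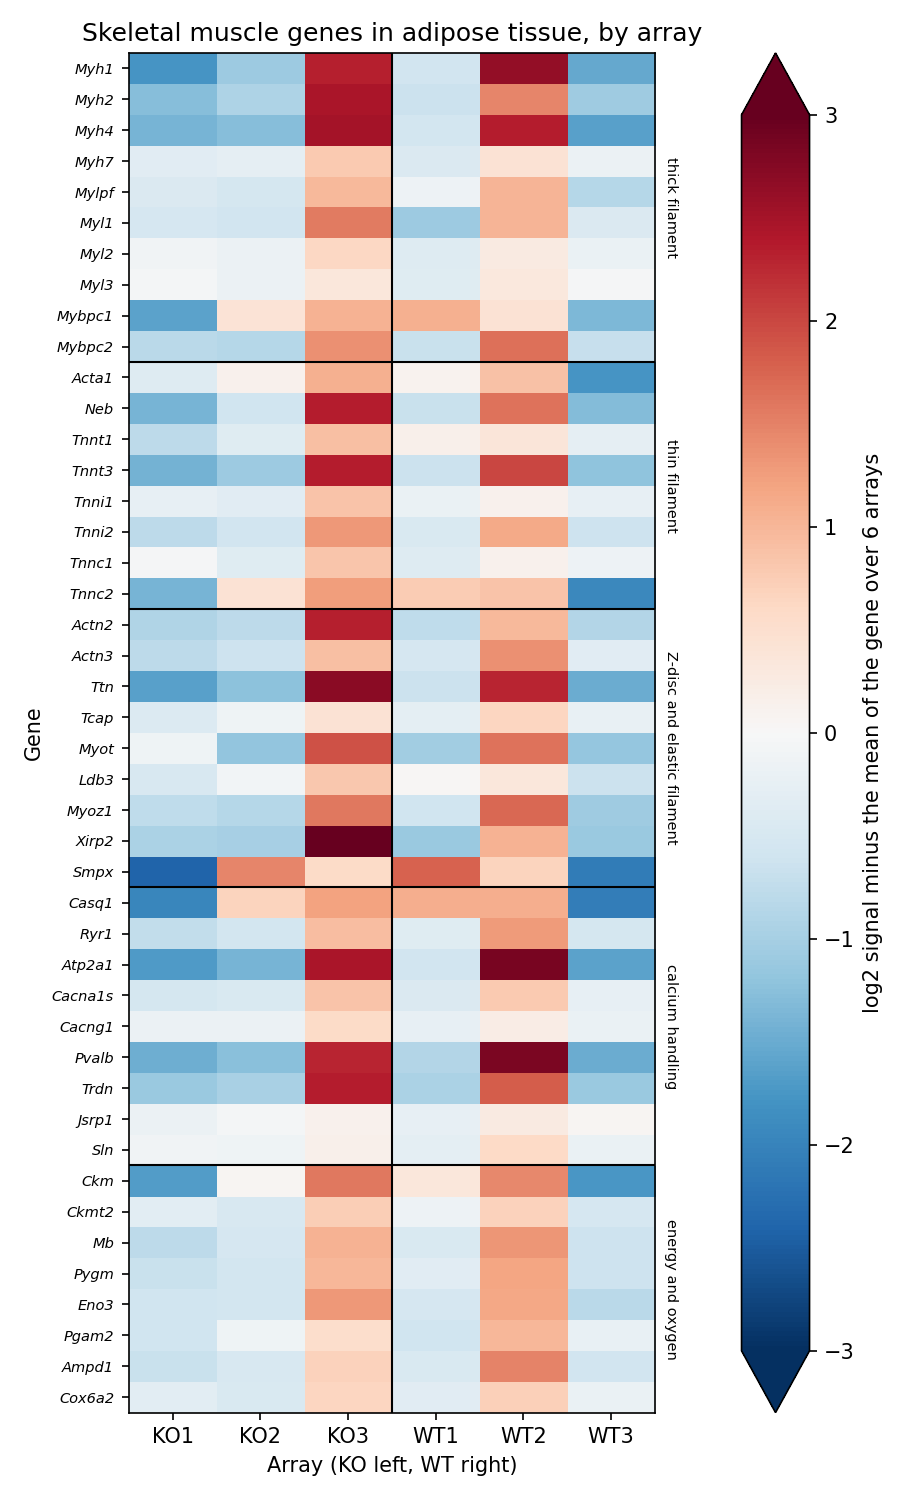
Log2 signal of the 44 skeletal muscle genes (rows, grouped by role) on each array (KO left, WT right), minus the mean of the gene over the 6 arrays. Red cells fill the columns of KO replicate 3 and WT replicate 2 in nearly every row. A few rows, among them Smpx, Casq1, Mybpc1, Tnnc2, Ckm and Acta1, are also above their mean on KO replicate 2 and WT replicate 1.

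The thick filament genes were led by the fast myosin heavy chains, the motors that set the speed of a fibre. Myh4, the heavy chain of the fastest fibres (type IIB), had log2 signals of 4.82, 4.95 and 8.71 in KO and 5.66, 8.57 and 4.59 in WT, a 17.4-fold span from the highest to the lowest array. Myh1 (type IIX) had 3.81, 4.50 and 7.92 in KO and 5.02, 8.22 and 4.04 in WT. For both genes 1 KO and 1 WT array lay near 8 or above, and the KO and WT ranges overlapped almost completely. Myh2 (type IIA) had 4.67, 5.04 and 8.40 in KO and 5.31, 7.41 and 4.87 in WT. Unlike the other fast heavy chains it was clearly higher in KO replicate 3 than in WT replicate 2, by 0.99 on the log2 scale. Myl1, a fast essential light chain, had 8.94, 8.87 and 11.01 in KO and 8.37, 10.47 and 9.01 in WT, and was above the median signal on every array. Mylpf, the fast regulatory light chain, spanned 3.71-fold, and Mybpc2, the fast myosin-binding protein C, 5.67-fold. The slow heavy chain Myh7 had 5.21, 5.26 and 6.31 in KO and 5.10, 5.98 and 5.36 in WT, a span of 2.32-fold. Myl2 and Myl3, light chains of slow fibres and heart ventricle, spanned 2.0-fold and 1.64-fold.

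Thin filament genes followed the same pair of arrays, with the widest span in a fast troponin. Tnnt3, fast troponin T, which ties the troponin complex to tropomyosin, had 5.85, 6.19 and 9.64 in KO and 6.64, 9.27 and 6.08 in WT, a 13.8-fold span. Neb, the ruler protein along the thin filament, had 5.65, 6.44 and 9.41 in KO and 6.38, 8.67 and 5.74 in WT. Acta1, skeletal muscle actin, behaved differently at the low end. It had 9.61, 10.13 and 11.07 in KO and 10.11, 10.87 and 8.23 in WT, so that 5 arrays lay within 1.46 and WT replicate 3 stood apart below them. Tnni2, fast troponin I, the inhibitory subunit, spanned 4.21-fold. Its slow counterpart Tnni1 had 5.38, 5.29 and 6.48 in KO and 5.43, 5.76 and 5.38 in WT, and was above the array median only in KO replicate 3.

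Among genes of the Z-disc and the elastic filament, Ttn, the giant spring of the sarcomere, and Xirp2, which binds actin at the ends of muscle fibres, had the widest spans. Ttn had 4.76, 5.16 and 9.10 in KO and 5.73, 8.67 and 4.89 in WT, a 20.3-fold span. Xirp2 had 3.88, 3.84 and 7.97 in KO and 3.73, 5.88 and 3.73 in WT. KO replicate 3 exceeded WT replicate 2 by 2.09, the widest gap between these arrays among the 44 genes. Actn2, the alpha-actinin of all fibres, was also higher there, with 5.32, 5.44 and 8.55 in KO and 5.46, 7.19 and 5.34 in WT. Actn3, the alpha-actinin of fast fibres, leaned the other way, with 6.39, 6.56 and 8.08 in KO and 6.67, 8.57 and 6.84 in WT. Myot (8.50-fold span), Myoz1 (6.93-fold), Ldb3 (2.77-fold) and Tcap (2.09-fold), other Z-disc proteins, each had KO replicate 3 and WT replicate 2 as their highest arrays. Smpx, a small protein of the Z-disc region and costamere, did not, and is described with the second pattern below.

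Calcium handling genes included the member with the widest span. Atp2a1, the calcium pump SERCA1 of fast fibres, had 5.48, 5.79 and 9.64 in KO and 6.61, 10.03 and 5.60 in WT, a 23.4-fold span. Pvalb, the calcium buffer parvalbumin of fast fibres, had 4.72, 4.94 and 8.49 in KO and 5.31, 9.02 and 4.71 in WT. Both were highest in WT replicate 2 and next in KO replicate 3, more than 3 log2 units above the third array. Trdn, which links calsequestrin to the release channel, spanned 11.2-fold, and the channel gene Ryr1 4.0-fold. The voltage sensor subunits Cacna1s and Cacng1 spanned 2.60-fold and 1.75-fold. Jsrp1, of the triad junction, had the narrowest span of all members, 1.43-fold, and Sln, the SERCA inhibitor sarcolipin, spanned 1.85-fold and lay below the median on every array.

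Genes of energy and oxygen supply had a median range of 1.97 on the log2 scale, close to the 2.0 of calcium handling genes and below the 2.46 to 3.09 of the filament and Z-disc groups. Ckm, muscle creatine kinase, had 6.76, 8.49 and 10.01 in KO and 8.77, 9.89 and 6.69 in WT, a 9.98-fold span. Eno3, the muscle enolase, had 7.26, 7.30 and 9.14 in KO and 7.35, 9.01 and 7.03 in WT. Mb, the oxygen store myoglobin, had 5.97, 6.25 and 7.80 in KO and 6.29, 8.06 and 6.13 in WT. For these 3 genes the pair KO replicate 3 and WT replicate 2 was again highest, and the ranges of KO and WT overlapped. Pygm, muscle glycogen phosphorylase, spanned 3.57-fold, Pgam2, muscle phosphoglycerate mutase, 3.05-fold, and Ampd1, muscle AMP deaminase, 4.46-fold. Ckmt2, the creatine kinase of sarcomeric mitochondria, and Cox6a2, a muscle subunit of cytochrome oxidase, spanned 2.35-fold and 2.24-fold.

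A second pair of arrays, KO replicate 2 and WT replicate 1, was high for a few members. Smpx had 3.67, 7.53 and 6.64 in KO and 7.84, 6.73 and 3.95 in WT, and was the 1 member for which KO replicate 2 and WT replicate 1 were the highest arrays. Casq1, the calcium store protein calsequestrin of fast fibres, had 5.36, 7.99 and 8.53 in KO and 8.42, 8.41 and 5.24 in WT. For Casq1, 4 arrays lay within 0.54 of one another and KO replicate 1 and WT replicate 3 stood below them by more than 2.6. Tnnc2, fast troponin C, the calcium sensor, had 5.81, 7.64 and 8.46 in KO and 7.96, 8.06 and 5.25 in WT. Mybpc1, the slow myosin-binding protein C, had 4.85, 6.88 and 7.51 in KO and 7.54, 6.89 and 5.12 in WT. With Ckm, these were the 5 of 44 members that were more than 1 log2 unit higher both in KO replicate 2 than in KO replicate 1 and in WT replicate 1 than in WT replicate 3, against 1.21% of all genes. The grouping was made after the values were seen.

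Smooth muscle genes were highest on that second pair, and not on the first. KO replicate 2 and WT replicate 1 were the 2 highest arrays for 10 of 12 smooth muscle genes, against 1694 of all 19937 genes. Of the 12, 8 met the same criterion of 1 log2 unit. The mean log2 signal of the list was 7.85, 9.57 and 8.62 in KO and 9.69, 8.67 and 8.14 in WT. The smooth muscle myosin Myh11 had 8.27, 10.94 and 9.23 in KO and 11.47, 9.32 and 9.05 in WT. Epididymis genes were mixed, with the second pair highest for 3 of 8, the first pair for 2 and a median range of 0.44. The criterion of 1 log2 unit was met by 3 of the 8, and 6 lay below the median on every array. The epididymis gene with the widest range, Adam7, had 4.51, 9.19 and 3.75 in KO and 10.33, 3.67 and 3.79 in WT. Whether smooth muscle or another tissue carried the Smpx, Casq1, Tnnc2, Mybpc1 and Ckm signal on these arrays was not tested.

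Fast fibre genes varied over the arrays far more than slow fibre genes. The mean log2 signal of 12 fast genes was 5.55, 5.89 and 8.51 in KO and 6.20, 8.46 and 5.58 in WT, and that of 7 slow genes 5.17, 5.44 and 6.39 in KO and 5.55, 5.92 and 5.28 in WT. The ranges of single genes over the 6 arrays had a median of 3.47 (1.89 to 4.55) for fast genes and 1.21 (0.72 to 2.69) for slow genes, on the log2 scale. In 6 of 7 pairs of fast and slow isoforms the fast gene had the wider range: Tnnt3 over Tnnt1, Tnni2 over Tnni1, Tnnc2 over Tnnc1, Mylpf over Myl2, Myl1 over Myl3 and Myh4 over Myh7. The myosin-binding protein C pair was the exception, at 2.50 for fast Mybpc2 and 2.69 for slow Mybpc1. For fast troponin T the range was 3.79 and for slow troponin T 1.70, and for troponin C 3.21 and 1.23. Most slow genes were dim. Apart from Mybpc1, none was above the array median on more than 2 arrays, and how far a floor of the signal narrowed their ranges was not tested.

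**Figure D2:**
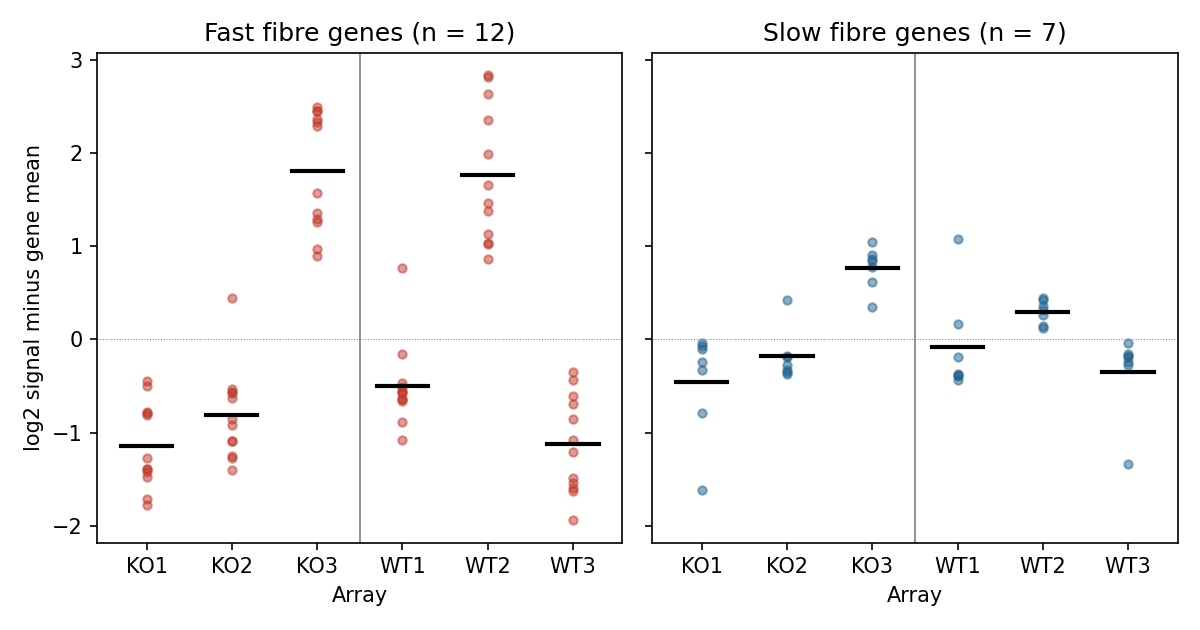
Log2 signal of 12 fast and 7 slow fibre genes on each array, minus the mean of each gene (points), with the mean over genes (bars), KO left and WT right. Fast genes reach higher on KO replicate 3 and WT replicate 2 than slow genes do, and the slow genes are higher on KO replicate 3 than on WT replicate 2.

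KO replicate 3 and WT replicate 2 also differed from each other in the kind of muscle gene. All 7 slow genes were higher in KO replicate 3, by 0.02 (Myl3) to 0.72 (Tnni1 and Tnnc1), while 6 of 12 fast genes were higher there, led by Myh2, and 6 were lower, led by Pvalb with -0.53. The mean of the fast genes minus that of the slow genes was 0.38, 0.44 and 2.12 in KO and 0.65, 2.54 and 0.30 in WT, or 0.98 ± 0.98 in KO and 1.17 ± 1.21 in WT (SD, n = 3 each). The difference between the genotypes, -0.19, was smaller than the spread within either, and its sign turned with single arrays. It was 0.11, 0.083 and -0.75 with KO replicate 1, 2 or 3 left out, and -0.44, 0.50 and -0.62 with WT replicate 1, 2 or 3 left out. It was 0.0021 with dim probe sets left out, a filter that kept Mybpc1 alone of the slow genes and not all fast genes. That value is thus not a contrast of the 2 full lists. These are comparisons of single mice and have no replicate check.

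Over other muscle genes outside the list, the median range was 1.35 for other sarcomere genes against 0.53 for myogenic factors. Of 97 listed genes 90 were measured. KO replicate 3 and WT replicate 2 were the highest arrays for 48 of the 90 (53.3%), against 16.6% of all genes. Among other sarcomere and cytoskeleton genes this held for 19 of 31. The tropomyosin gene Tpm2 and the Z-disc gene Pdlim3 had the widest ranges there, 3.04 and 2.76, and both were highest in WT replicate 1. Des, the intermediate filament of all muscle types, had 7.62, 9.76 and 9.41 in KO and 10.00, 9.59 and 7.93 in WT. Tpm2, Pdlim3 and Des thus had the second pattern, and Tpm1, Myom1, Sgca, Casq2, Jph2 and Eya1 met the same criterion. Among other triad and membrane genes the first pair was highest for 9 of 21, and Casq2 and Jph2 had the widest ranges (1.46 and 1.42). Among other muscle energy genes it was highest for 5 of 14, with ranges of 2.98 for Cox8b and 2.39 for Ppp1r3a, a glycogen-targeting subunit of protein phosphatase.

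The myogenic factors, which commit cells to the muscle lineage, had a median range of 0.53 as a list, with Myf6 well above it. Of 14 measured genes of this list, the satellite cell gene Pax7 among them, 8 lay below the median on every array, where low signals are drawn together. Myod1 had 5.64, 5.60 and 6.05 in KO and 5.71, 6.08 and 5.85 in WT, Myog 4.74, 4.91 and 5.01 in KO and 4.72, 5.22 and 4.82 in WT, and Pax7 5.56, 5.42 and 5.89 in KO and 5.60, 5.82 and 5.59 in WT. The first pair was highest for 8 of the 14, and Myf6, the factor that is most abundant in mature fibres, and Eya1 had the widest ranges (1.77 and 1.25). Of 10 measured atrophy and secreted muscle genes it was highest for 7, led by Mstn, myostatin, with a range of 2.25, and Ky with 1.02. The muscle caveolar genes had ranges of 0.30 (Cav3) and 0.57 (Cavin4). Cav3, the caveolin of muscle, had 5.35, 5.27 and 5.53 in KO and 5.23, 5.45 and 5.39 in WT, and Cavin4, the cavin of striated muscle, had 5.26, 5.05 and 5.62 in KO and 5.13, 5.09 and 5.17 in WT. All 12 of these values lay below the array median.

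The 10 genes outside the list whose centred values lay nearest to the mean profile of the 44 members, by root mean square difference over the 6 arrays, were Myoz2 (0.172), Klhl41 (0.214), Mss51 (0.220), Ptgfr (0.247), Ppp1r3a (0.259), Lratd1 (0.269), Klhl31 (0.286), Hjv (0.289), Agr2 (0.293) and Tmod4 (0.295). Myoz2, Klhl41, Ppp1r3a and Tmod4 stood in the other muscle lists. Myoz2 encodes a Z-disc protein of slow fibres and heart, and Klhl41 a protein of the sarcomere.

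Heart muscle and brown fat markers had smaller median ranges than the skeletal muscle genes, with Ucp1 and Cox8b among the wide exceptions. Of 13 heart genes 3 had KO replicate 3 and WT replicate 2 as their highest arrays, the median range was 0.48, and the atrial genes Nppa and Myl7 and the ventricular Myh6 stayed below the median on every array. Of 14 brown and beige adipocyte genes 11 had that pair highest, but the median range was 0.67, 3 of the 14 had a range above 2, and 5 lay below the median on every array. Ucp1, the uncoupling protein of brown fat, had 4.31, 4.52 and 8.75 in KO and 4.50, 8.56 and 4.35 in WT, and the list mean was 6.09, 6.05 and 7.02 in KO and 5.92, 7.02 and 5.91 in WT. Cox7a1 and Cox8b are in both the brown fat list and the muscle energy list. The adipocyte markers had a median range of 0.24. The parts of brown fat, of sex and of the place of sampling in the muscle profile were not tested, and on these 6 arrays they cannot be told apart.

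**Figure D3:**
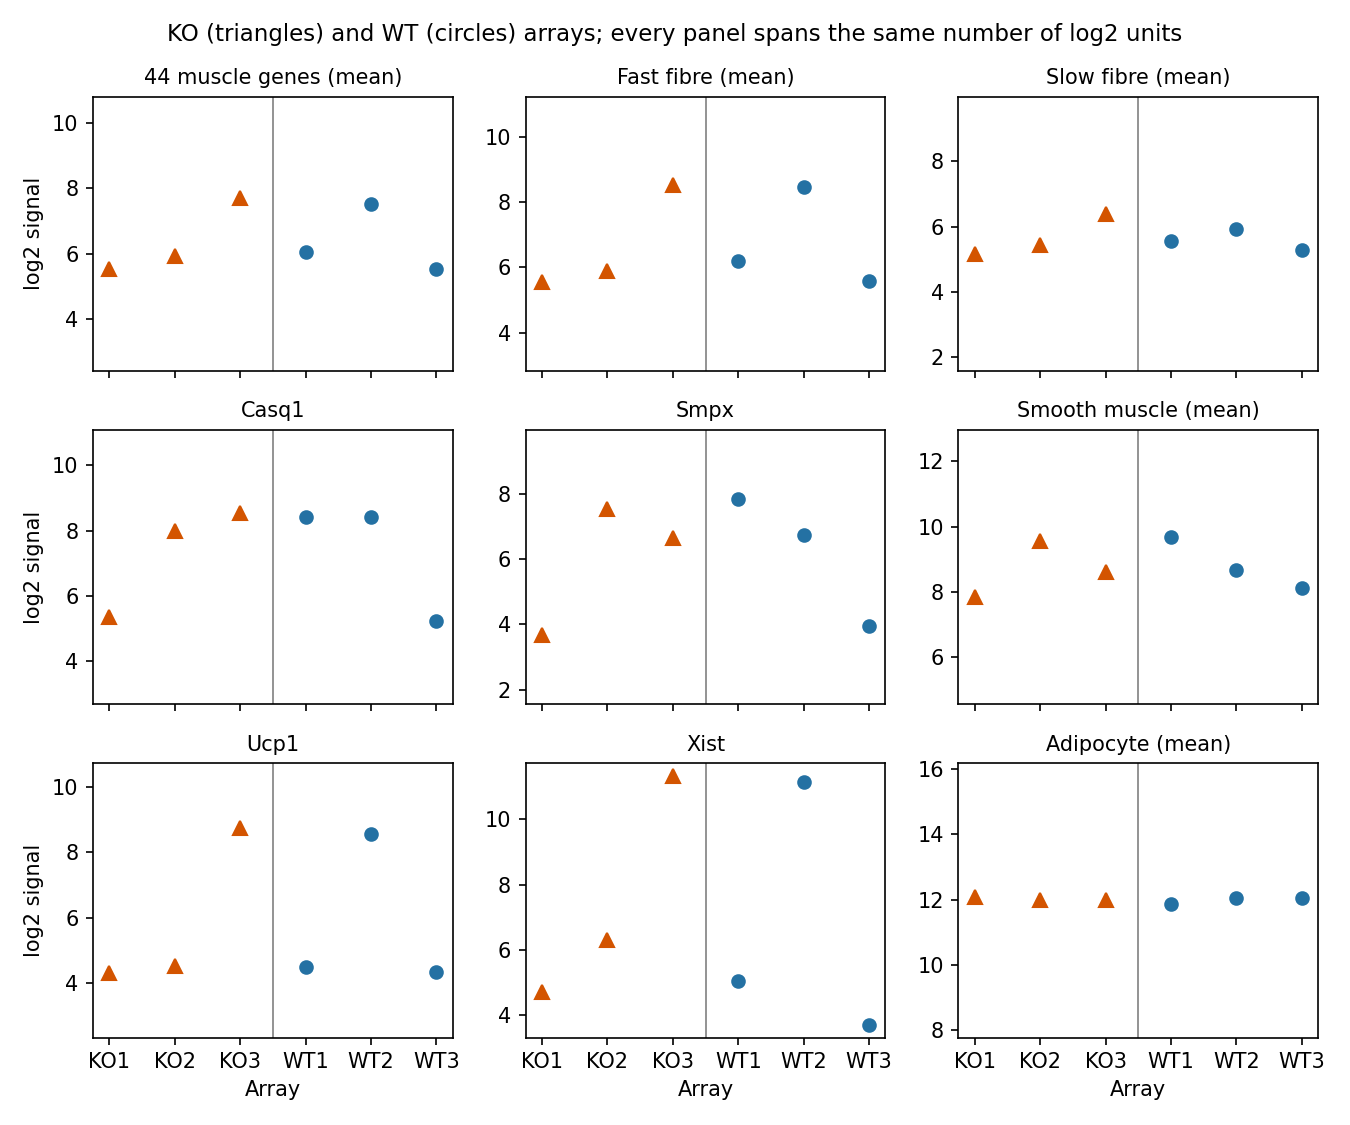
Log2 signal on each array (KO triangles, WT circles) for the mean of the 44 muscle genes, of fast, slow, smooth muscle and adipocyte lists, and for Casq1, Smpx, Ucp1 and Xist, each panel spanning the same number of log2 units. The muscle mean, Ucp1 and Xist peak on KO replicate 3 and WT replicate 2, the smooth muscle mean peaks on KO replicate 2 and WT replicate 1, and the adipocyte mean is flat.

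Between the genotypes, no skeletal muscle gene passed the test. In limma with Benjamini-Hochberg adjustment over all 34760 probe sets, 0 of the 44 genes had an adjusted p under 0.05, against 2 probe sets in all (0.00575%) and 0.00502% of the 19937 genes. None had an unadjusted p under 0.05 (0.838% of all genes did), the smallest being 0.399 for Tnnc1, and the methods' t-test on the same values, adjusted in the same way, called none either. The KO and WT arrays overlapped for each of the 44 genes, whereas they were fully apart for 4.61% of all genes. In KO, 17 genes were higher and 27 lower at any p (50.3% of all genes were higher), with a median log2 difference of -0.05 against 0.00 for all genes. The mean of the 44 genes was 6.38 ± 1.15 in KO and 6.37 ± 1.03 in WT (SD, n = 3 each). By role, 5 of 10 thick filament, 5 of 8 thin filament, 4 of 9 Z-disc, 2 of 9 calcium handling and 1 of 8 energy genes were higher in KO. The median difference was -0.11 for fast genes (3 of 12 higher) and 0.11 for slow genes (5 of 7 higher). Of the other muscle genes 44 of 90 were higher, and none passed the adjusted p or an unadjusted p under 0.05.

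For the members with the largest differences or the widest ranges the intervals were wide, and changes of several-fold in either direction were not detectable in them with 3 mice a group. Xirp2 had the largest positive difference, at 1.72-fold in KO with a 95% interval of 0.221 to 13.4. Acta1 followed at 1.45-fold (0.441 to 4.75) and Actn2 at 1.35-fold (0.269 to 6.81). Atp2a1 had the largest negative difference, at 0.736-fold (0.0598 to 9.07), then Myh1 at 0.784-fold (0.0728 to 8.44) and Actn3 at 0.786-fold (0.267 to 2.32). Tnnt3 was at 0.933-fold, Ttn at 0.937-fold and Ckm at 0.979-fold, each with an interval reaching beyond 5-fold. Members with narrow ranges had narrower intervals, and Jsrp1, named after its values were seen, had the narrowest, at 0.959-fold (0.739 to 1.24). The smallest adjusted p from limma among the 44 genes was 0.999988. For all 44 the span of the arrays within KO or within WT exceeded the KO minus WT difference. The same held for 19587 of all 19937 genes, so it does not set the members apart.

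**Figure D4:**
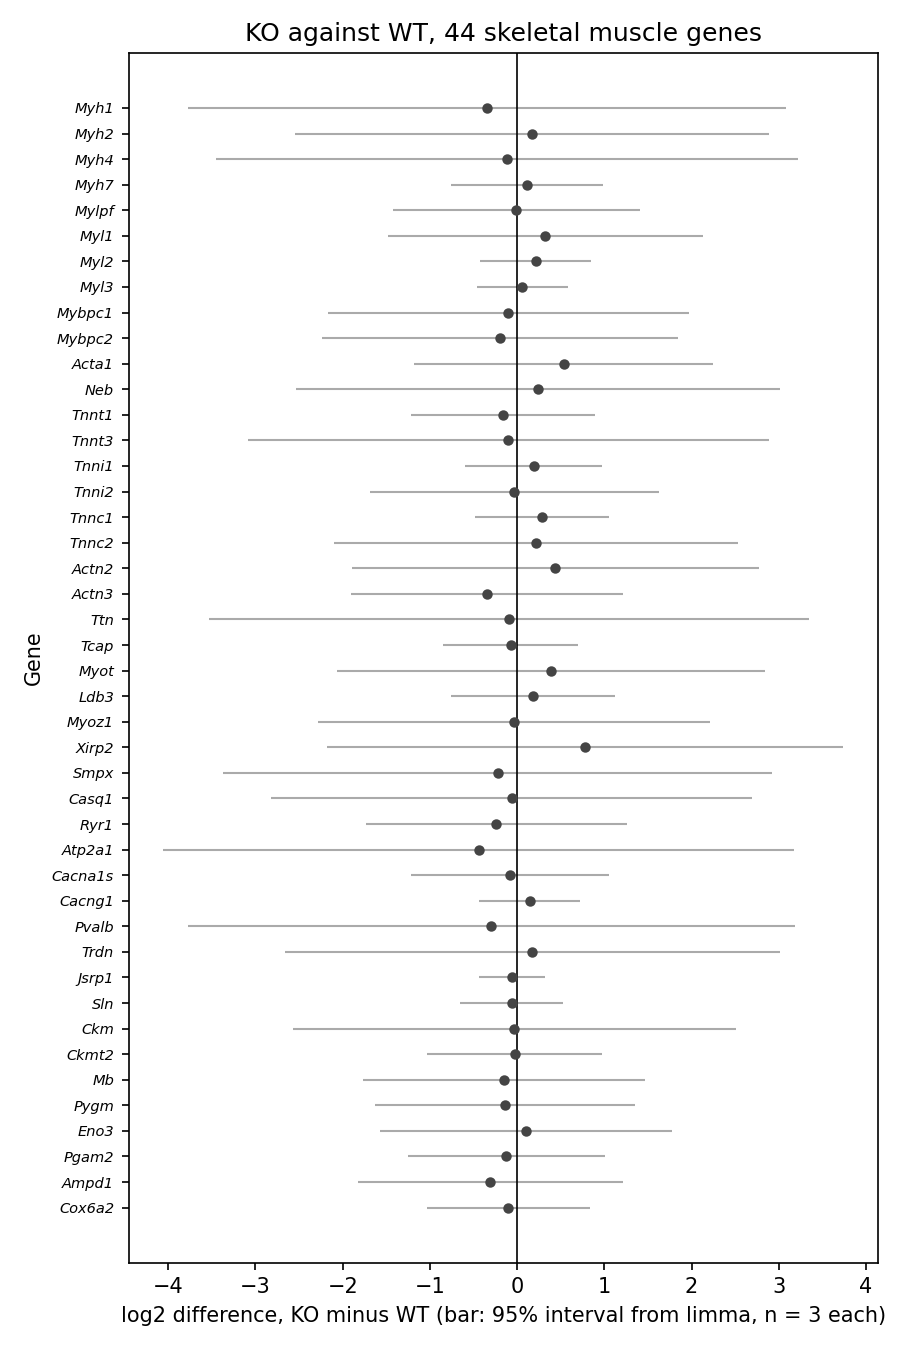
Log2 difference, KO minus WT, of each of the 44 genes (points) with its 95% interval from limma (bars, n = 3 each). Every interval crosses 0, and the points lie between -0.44 for Atp2a1 and 0.78 for Xirp2.

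Single mice set the direction of the list. Without KO replicate 3, 1 of the 44 genes was higher in KO and the median log2 difference was -0.60, and without WT replicate 2, 43 were higher and the median was 0.46. Leaving out KO replicate 1 gave 41 higher (median 0.35), and leaving out KO replicate 2 gave 32 (0.22). For WT replicate 1 these values were 13 (-0.13), and for WT replicate 3 they were 9 (-0.34). With both KO replicate 3 and WT replicate 2 left out, 16 were higher and 28 lower, with a median of -0.07, close to the values with all 6 arrays. A block for the 2 arrays with high Xist, which are 1 KO and 1 WT, cannot move the differences and changes only their errors. With it 1 of the 44 genes, Actn3, had an unadjusted p under 0.05, against 1.18% of all genes (adjusted p = 1.0 from limma, log2 difference -0.35).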

How the data were processed

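Per the labels, total RNA of adipose tissue was extracted with Trizol, and the authors amplified it with a NuGEN Ovation kit, hybridised it and processed the scans in GenePattern. The deposited values are linear intensities per probe set, for which the submitters' processing notes name RMA (background correction, quantile normalization, summary over probes). No build is given in the sources used here. RMA draws low signals together, so folds of dim genes may be too small. With 3 arrays a group, precision is limited by their number.

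The log2 of each intensity entered a linear model of genotype in limma 3.58.1 (lmFit and eBayes, R 4.3.3) that covered all 34760 probe sets, and p-values were adjusted by Benjamini-Hochberg. Of the probe sets, 21640 have 1 symbol, 1321 several and 11799 were not listed. All adjusted p-values come from this fit unless named. Whether the mice share a litter is not given per sample. The p-values set each KO minus WT difference against the spread between mice of one genotype.

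The members and all lists (fast, slow, other muscle genes, heart, smooth muscle, adipocyte, brown and beige fat, nerve, tendon, blood, mammary gland, epididymis, sex) were chosen with earlier results of these data known. KO minus WT differences are printed for members with an unadjusted p under 0.05 or no overlap (there were 0), the 3 largest each way, and the widest range in each role. In other lists, the 2 widest ranges and 6 set genes were named, and others after their values were seen.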

Additional observations from a re-analysis of the deposited data

How the results depend on the processing

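None of the 44 genes and none of the other muscle genes was called under any setting, with the methods' t-test, median centring, quantile normalization, a filter on dim signals, single-symbol probe sets only, trend and robust variance, array weights, the replicate block, averaged probe sets or fewer arrays. The number of probe sets called, 2 over all arrays, was 1 with single-symbol probe sets and with averaging per gene (fewer features are tested), 0 with the methods' t-test and without both WT replicate 2 and KO replicate 3, and 1 to 2 without single arrays. The replicate numbers did not pair the samples, since the correlation of deviations of same-numbered arrays was -0.15, -0.37 and -0.09, against 0.52 for KO replicate 2 with WT replicate 1, 0.48 for KO replicate 3 with WT replicate 2 and 0.37 for KO replicate 1 with WT replicate 3. With the replicate block 0 probe sets were called, and the differences cannot move because each number holds 1 KO and 1 WT array. Members higher in KO numbered 1 to 43 without single arrays, and 9 of the 23 that passed the filter on dim probe sets.

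Without single arrays the log2 difference, KO minus WT, was -1.61 to 0.88 for Myh1, -0.22 to 1.10 for Acta1, -1.31 to 0.87 for Tnnt3, -0.62 to 1.04 for Actn2, -0.88 to 0.26 for Actn3, -1.47 to 1.03 for Ttn, -0.59 to 1.50 for Xirp2, -1.78 to 0.87 for Atp2a1 and -0.91 to 0.80 for Ckm, so all 9 changed sign. Without both WT replicate 2 and KO replicate 3, Actn2 was at -0.02, and with array weights Ckm was at 0.25. The median of the fast genes was -0.97 to 0.87 and that of the slow genes -0.19 to 0.32 without single arrays.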

Other observations

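The tendon, nerve, mammary gland, epididymis and blood lists had other orders of the arrays than the skeletal muscle genes, and smaller median ranges. The brown and beige fat list, described above, differed from these, with the first pair highest for 11 of 14 genes. Of 7 tendon and fascia genes 2 had KO replicate 3 and WT replicate 2 as their highest arrays, and the median range was 1.11. Fmod, a matrix protein of tendon named after its values were seen, was lowest on those 2 arrays. It had 8.60, 9.07 and 7.35 in KO and 8.86, 7.45 and 8.77 in WT. Over the 7 genes, KO replicate 3 was the lowest array for 1 and WT replicate 2 for 2. Of 7 nerve and Schwann cell genes 1 had that pair highest (median range 0.51). Of 9 mammary gland genes it was 1, with a median range of 1.40 and a widest of 3.46, and KO replicate 2 and WT replicate 1 were highest for 4. Of 8 epididymis genes the first pair was highest for 2 and the second for 3. The 2 measured blood genes, Alas2 and Slc4a1, had ranges of 0.97 and 0.14.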
